A study of Drosophila melanogaster with 110 samples.

Results

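The sites described here are 467 places in the genome of Kc167 cells where the Polycomb group protein Ph overlapped chromatin marked by H3K27me3. The enzyme that writes this mark, E(z), was not reproducibly found there. The sites were defined by measured values. For each target the peaks of its libraries were merged wherever they overlapped by 1 bp or more, and the resulting region was kept when 3 or more of the 6 lists of Ph or E(z), or 2 or more of the 4 lists of H3K27me3, had a peak in it. This left 2086 Ph regions, 333 H3K27me3 regions and 290 E(z) regions. Of the 2086 Ph regions, 467 overlapped a H3K27me3 region and no E(z) region (called E(z)-poor sites below), 243 overlapped both (E(z)-bearing sites), and 1376 lay outside H3K27me3 regions. Because Ph, E(z) and H3K27me3 chose the sites, their values are given as a description without a test.

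Kc167 is an established Drosophila melanogaster cell line of embryonic origin that the labels describe as hemocyte, the blood cell lineage of the fly. Cells were transfected with dsRNA against GFP, which served as control, or against rump, which encodes an RNA-binding protein of the hnRNP M type, and were harvested after 4 d at 25 °C. Chromatin was immunoprecipitated with antibodies to 13 targets and sequenced, with 3 control and 3 rumpRNAi libraries per target and 2 of each condition for H3K27me3, 76 libraries in all. The comparison asks whether Polycomb group, recruiter and insulator proteins sat on chromatin in the same places after Rump depletion.

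Polycomb group proteins keep developmental genes silent in 2 complexes. PRC2, with the methyltransferase E(z) and its partner Su(z)12, trimethylates lysine 27 of histone H3, and PRC1, with Pc, Psc and Ph, includes in Pc a chromodomain that binds this mark. In flies both complexes are brought to Polycomb response elements by DNA-binding proteins such as Pho, Combgap (Cg) and Crol, and the mark then extends over domains far wider than the element itself.

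Absence of E(z) was graded rather than complete. Of the 467 sites, 331 had a peak in none of the 6 E(z) lists, 96 in 1 list and 40 in 2 lists. Ph support also varied, with peaks in all 6 Ph lists at 176 sites, in 5 lists at 172, in 4 at 59 and in 3 at 60, whereas 238 of the 243 E(z)-bearing sites had Ph in all 6 lists. E(z)-poor sites were narrower, with a median width of 584 bp against 1310 bp, and weaker in Ph. Their median percentile of Ph fold enrichment, the rank of a peak among all peaks of its list from 0 to 100, was 63.6 against 93.9. Ph sites outside H3K27me3 regions had a median width of 482 bp and a median percentile of 42.7.

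Sequences of 121 bp around the Ph summit are printed for 6 of the named E(z)-poor sites. These windows were picked as a contrast between sites with and without Pc, and do not represent all E(z)-poor sites. All are from the forward strand of dm6, and capitals mark GCCAT (the core of the Pho motif), GAGAG (bound by GAGA factor and Pipsqueak) and GTGTGT (associated with Combgap), or their reverse complements. The first 3 sites had Pc peaks in all 6 lists. The erm window lay at chr2L:1970537-1970657 in intergenic sequence of a site that overlaps the start of the gene, that of Sp1 at chrX:9729104-9729224 likewise, and that of Dad at chr3R:17056451-17056571 in an intron.
erm: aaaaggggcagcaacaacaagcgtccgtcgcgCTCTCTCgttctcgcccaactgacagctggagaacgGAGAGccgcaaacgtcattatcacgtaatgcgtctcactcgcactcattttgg
Sp1: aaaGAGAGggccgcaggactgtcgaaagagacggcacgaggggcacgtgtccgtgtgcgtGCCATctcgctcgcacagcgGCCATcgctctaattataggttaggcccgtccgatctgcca
Dad: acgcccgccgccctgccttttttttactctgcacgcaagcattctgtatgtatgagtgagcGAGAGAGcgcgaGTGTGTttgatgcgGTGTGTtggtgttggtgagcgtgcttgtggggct
The last 3 sites had no Pc peak in any list, and their windows lay in coding exons, that of lz at chrX:9295384-9295504, that of hth at chr3R:10605192-10605312 and that of grn at chr3R:8167924-8168044.
lz: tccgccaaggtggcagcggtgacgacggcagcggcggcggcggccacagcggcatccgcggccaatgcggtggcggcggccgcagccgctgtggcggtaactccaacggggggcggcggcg
hth: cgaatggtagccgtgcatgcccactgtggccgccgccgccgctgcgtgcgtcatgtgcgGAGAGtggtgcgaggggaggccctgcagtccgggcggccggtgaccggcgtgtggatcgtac
grn: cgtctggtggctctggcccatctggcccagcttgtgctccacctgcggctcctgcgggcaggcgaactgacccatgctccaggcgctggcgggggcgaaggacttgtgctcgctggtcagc
Counting overlapping matches, the erm window held 3 to GAGAG, the Sp1 window 2 to GCCAT and 1 to GAGAG, and the Dad window 2 to GTGTGT and 2 to GAGAG. Of the coding windows only that of hth held a match, 1 to GAGAG. G and C made up 54.5% to 61.2% of the bases in the first 3 windows and 69.4% to 78.5% in the last 3.

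Over all sites the DNA of E(z)-poor sites was intermediate between the other 2 kinds. In windows centred on the Ph summit and 1 base longer than the promoters compared with them, 50.5% of the 465 E(z)-poor sites on chromosome arms held GAGAG on either strand, against 79.8% of E(z)-bearing sites, 35.1% of Ph sites outside H3K27me3 and 29.5% of all 18277 promoters, taken from 250 bases before to 50 after a transcription start. GTGTGT was present at 25.4%, 45.0%, 14.1% and 16.4% in the same order. GCCAT was present at 62.2%, 70.2%, 55.4% and 41.2%. The median share of G and C was 58.1%, 53.2%, 64.1% and 38.3%. These shares are a description of letters in a window, and a match is not a bound site.

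E(z)-poor sites lay less often at transcription starts than E(z)-bearing sites in these lists, which is a description since the classes differ in width. A start was overlapped by 82 of 465 placed sites (17.6%), against 119 of 242 (49.2%). Coding exons, without an overlap of a start, held 210 E(z)-poor sites (45.2%) against 27 E(z)-bearing ones (11.2%), and 994 Ph sites outside H3K27me3 (74.0%). Introns held 70 E(z)-poor sites and intergenic sequence 93. Another 10 lay in other parts of exons and 2 on unplaced sequence. By arm, X carried 136 of the E(z)-poor sites (29.1%), 38 of the E(z)-bearing sites (15.6%) and 363 of those outside H3K27me3 (26.4%).

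**Figure D1:**
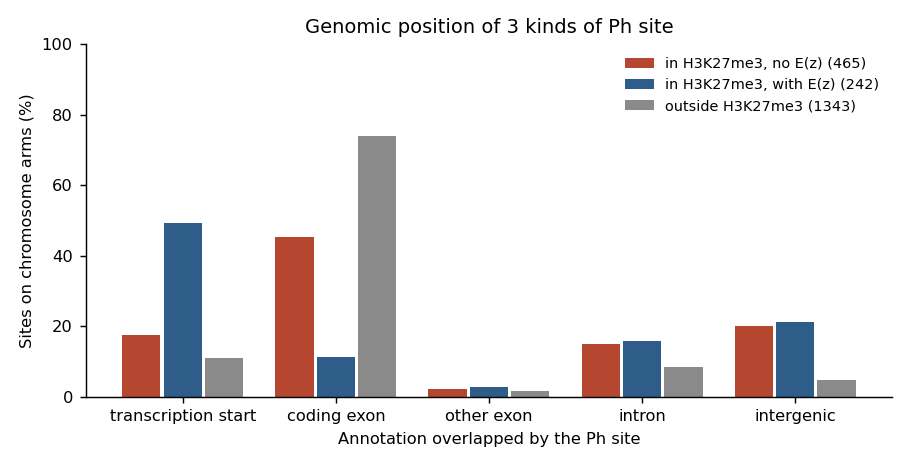
Share of Ph sites on chromosome arms (y axis, percent) by the annotation they overlapped, for the 3 kinds of Ph site (bars). E(z)-poor sites were most often in coding exons (45.2%) and E(z)-bearing sites at transcription starts (49.2%).

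The 467 sites fell into 208 of the 333 H3K27me3 regions, with a median of 1.5 and up to 16 sites per region. Regions that also held an E(z)-bearing site numbered 94 and contained 283 of the E(z)-poor sites. They had a median width of 48.3 kb. Another 114 regions held 184 E(z)-poor sites and no E(z)-bearing site, with a median width of 11.4 kb and a maximum of 51.1 kb. Where both kinds shared a region, the median distance from an E(z)-poor site to the nearest E(z)-bearing one was 7.26 kb, and 56 of 283 lay within 2 kb. E(z)-poor summits were also nearer to the edge of their H3K27me3 region, at a median of 7.67 kb against 17.4 kb, in regions that differ in width.

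The richest region was the Antennapedia complex at chr3R:6662050-7062688, which holds the Hox genes lab, Dfd, Scr and Antp. It contained 16 E(z)-poor and 13 E(z)-bearing sites over 401 kb. The bithorax complex at chr3R:16653588-16980268, with the Hox genes Ubx, abd-A and Abd-B, contained 13 and 15. The region of upd1, upd2 and upd3, the ligands of the JAK/STAT pathway, contained 11 and 7 at chrX:18226706-18365221. By gene, 5 E(z)-poor sites were on Antp, 4 on Ubx, 3 on abd-A and 4 on Abd-B. The segmentation gene eve carried 1 E(z)-bearing site and 0 E(z)-poor sites, and its H3K27me3 region held 1 of each.

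Genes were counted against lists chosen with earlier results of these data known. Of 64 homeodomain genes, 39 had at least 1 E(z)-poor site on the gene or within 2 kb upstream, and 30 of these also had an E(z)-bearing site. The other 9 were B-H2, Rx, ara, exex, gsb-n, hbn, prd, slou and vnd. These genes took 75 E(z)-poor sites (16.1%), against 26.7% of E(z)-bearing sites and 1.09% of Ph sites outside H3K27me3. Of 82 other transcription factor genes, 33 had an E(z)-poor site, and 8 of these had no E(z)-bearing one, among them the segmentation genes odd, run, slp1 and kni. They took 13.9% of E(z)-poor sites, against 21.0% of E(z)-bearing sites and 2.83% of those outside. Of 29 annotated signalling genes, 7 had an E(z)-poor site, and Egfr, Wnt6, hh and vn, which encode a receptor and ligands of the EGF, Wnt and Hedgehog pathways, had no E(z)-bearing site. Signalling genes took 2.36%, 1.65% and 1.38% of the 3 kinds of site, shares near each other. The Polycomb group list contributed 1 E(z)-poor site at Su(z)2, and the hemocyte list 3 sites at lz and PPO2, 0.642% of E(z)-poor sites against 1.23% and 1.02% of the others.

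The 10 strongest sites were those with a Ph peak in all 6 lists and the highest lowest percentile. First was a site on the noncoding gene lncRNA:CR43650 at chr2R:16828422-16829384, with Ph fold enrichments of 42.0, 33.4 and 35.8 in control replicates 1 to 3 and 45.8, 13.8 and 44.2 in the rumpRNAi replicates. At erm, which encodes a zinc finger protein of neural progenitors, the site at chr2L:1970162-1971097 had fold enrichments of 39.7, 34.7 and 43.1 in control and 35.8, 10.7 and 44.2 after rumpRNAi. At both, the second rumpRNAi library was lowest and the other 5 were of similar height. Further down were sites at Sp1, near TfAP-2, and at Drgx (a homeobox gene), Dad (an inhibitor of Dpp signalling), Sox21b, Hr4 (a nuclear receptor) and lz (a Runx factor of crystal cells and the eye). The tenth was in a coding exon of the cuticle protein gene Ccp84Ag, with fold enrichments of 8.44, 9.08 and 8.56 in control and 8.74, 8.57 and 6.93 after rumpRNAi. H3K27me3 itself had a peak at the CR43650 and Dad sites in only 1 of 4 lists, so that they were counted through the merged region. The merged region of the CR43650 site ended at chr2R:16828492, so that most of this site lay outside the mark.

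Pho, which binds DNA directly, was found at nearly every E(z)-poor site. In control libraries 91.9%, 92.3% and 96.4% of the sites had a Pho peak, and 445 of 467 had one in 3 or more lists. Crol, a zinc finger protein, was found at 71.5%, 79.0% and 77.5%, and Cg, also a zinc finger protein, at 71.9%, 78.2% and 68.3%. All 3 recruiters together were kept in 3 or more lists at 287 sites (61.5%). This share was 88.1% at E(z)-bearing sites and 78.1% at Ph sites outside H3K27me3. Pho and Crol without Cg held 71 E(z)-poor sites, Pho and Cg without Crol 52, and Pho alone 35, while 8 sites had none of the 3. Their summits coincided with those of Ph, at a median distance of 22.0 bp for Pho, 21.5 bp for Cg and 30.5 bp for Crol. Where Pho was kept, 63.4% of E(z)-poor sites held GCCAT, against 36.4% of the 22 sites where it was not.

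PRC1 partners and PRC2 were found far less regularly. Pc was kept in 3 or more lists at 252 E(z)-poor sites (54.0%), Psc at 112 (24.0%) and Su(z)12, the partner of E(z) that the choice of sites did not use, at 215 (46.0%). At E(z)-bearing sites these shares were 96.3%, 99.2% and 98.4%, and Su(z)12 was kept at 52.6% of Ph sites outside H3K27me3. The Su(z)12 shares rest on its longer lists. With each list limited to its 315 strongest peaks, a peak was present at a mean of 7.71% of E(z)-poor sites in control and 7.78% after rumpRNAi, and at 65.6% of E(z)-bearing sites, so the patterns that follow hold for the lists as deposited. The 3 proteins together were kept at 37 E(z)-poor sites (7.92%) and at 229 E(z)-bearing sites (94.2%). The most frequent patterns at E(z)-poor sites were Su(z)12 alone at 138 sites, Pc alone at 128, none of the 3 at 63, and Pc with Psc at 61. Su(z)12 alone held 29.6% of E(z)-poor sites and 49.4% of Ph sites outside H3K27me3, and Pc alone 27.4% and 8.58%. None of the 3 held 13.5% and 36.9%, and Pc with Psc 13.1% and 1.60%.

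These shares were higher with more E(z) lists. Psc was kept at 12.1% of sites with no E(z) list, 42.7% with 1 and 77.5% with 2, just inside the limit of the rule, and at 90.5% of the 21 sites with 3, just outside it. Pc was kept at 49.2%, 61.5%, 75% and 90.5% of the same sites, and Su(z)12 at 39.9%, 58.3%, 67.5% and 85.7%. The median Ph percentile was 55.1, 72.5, 83.8 and 87.3. From 2 to 3 lists, across the limit, Ph rank and the shares of Pc, Psc and Su(z)12 were all higher, as at the steps before it. Median width also differed, at 753 bp for the 40 sites with 2 lists and 865 bp for the 21 with 3. A step at the limit was not tested.

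**Figure D2:**
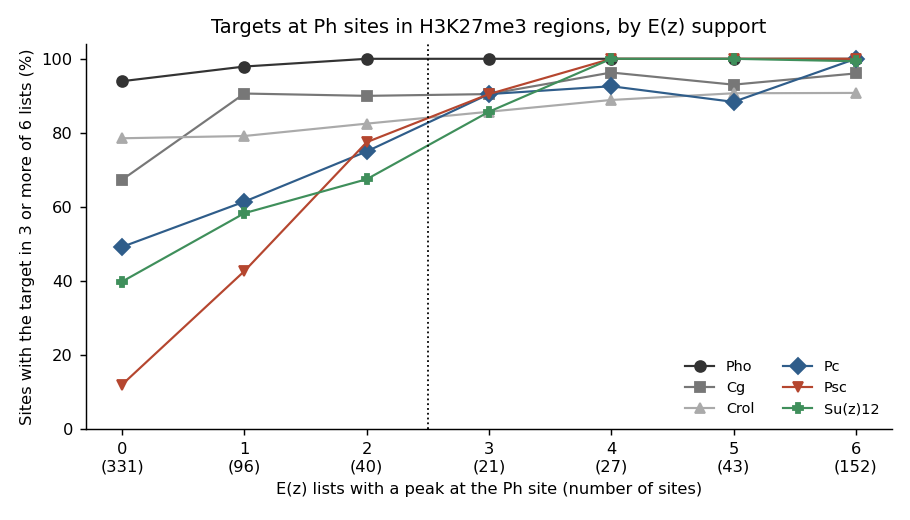
Share of Ph sites in H3K27me3 regions with a target in 3 or more of its 6 lists (y axis, percent) by the number of E(z) lists with a peak at the site (x axis, number of sites in parentheses); the dotted line is the limit of the rule. Pho stayed above 93% throughout, and Psc went from 12.1% to 100%.

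Differences between E(z)-poor and E(z)-bearing sites were tested within each library, with an exact two-sided sign-flip test over the 6 libraries of a target. The smallest p this test can give is 0.0312, which becomes 0.0347 after Benjamini-Hochberg adjustment over 10 targets where 9 reach it. Psc peaks were present at a mean of 24.5% of E(z)-poor and 94.0% of E(z)-bearing sites, a difference of -69.4 ± 11.1 points (SD, n = 6, exact adjusted p = 0.0347, lower in 6 of 6 libraries). Su(z)12 differed by -56.1 ± 26.1 points, Pc by -46.5 ± 10.3, Cg by -23.7 ± 6.93, Crol by -11.3 ± 2.51 and Pho by -10.4 ± 5.14, each lower in 6 of 6 libraries at the same adjusted p. With same-numbered Pho libraries taken as pairs, since their deviations correlated, the Pho call did not hold (exact sign-flip p = 0.25, the smallest that 3 pairs allow). Among insulator proteins Su(Hw) differed by -6.25 ± 2.23 points, CTCF by -5.61 ± 0.659 and CP190 by -4.22 ± 0.809, also in 6 of 6 libraries. MOD, the insulator protein Mod(mdg4), was lower in 4 of 6 libraries (-4.17 ± 5.51 points, exact adjusted p = 0.125).

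Most of the E(z)-bearing sites ranked higher in Ph, and the differences in Pc, Pho and Cg were smaller between sites of similar rank. Between the 125 E(z)-poor and 37 E(z)-bearing sites with a median Ph percentile of 75 to 90, a range chosen after the data were seen, Psc still differed by -40.1 points and Su(z)12 by -50.6 points (exact adjusted p = 0.0446 for each). Crol and Su(Hw) differed more than over all sites, by -24.9 and -20.0 points. Pc differed by -3.50 points (exact adjusted p = 0.521), Pho by -2.03 points (p = 1 by the same exact test) and Cg by -6.65 points (exact adjusted p = 0.0781). CP190 was higher by 4.16 points at E(z)-poor sites in this range (exact adjusted p = 0.0446). Crol was higher by 5.68 points at E(z)-poor sites, not lower, when only sites with Ph in all 6 lists were compared, 176 against 238 (exact adjusted p = 0.0446). In that comparison Su(Hw) and MOD also turned to a higher mean at E(z)-poor sites. Su(Hw) stood at 31.4% in control and 19.1% after rumpRNAi, against 20.2% at E(z)-bearing sites over both conditions. MOD stood at 30.1% and 29.4%, against 20.3%.

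**Figure D3:**
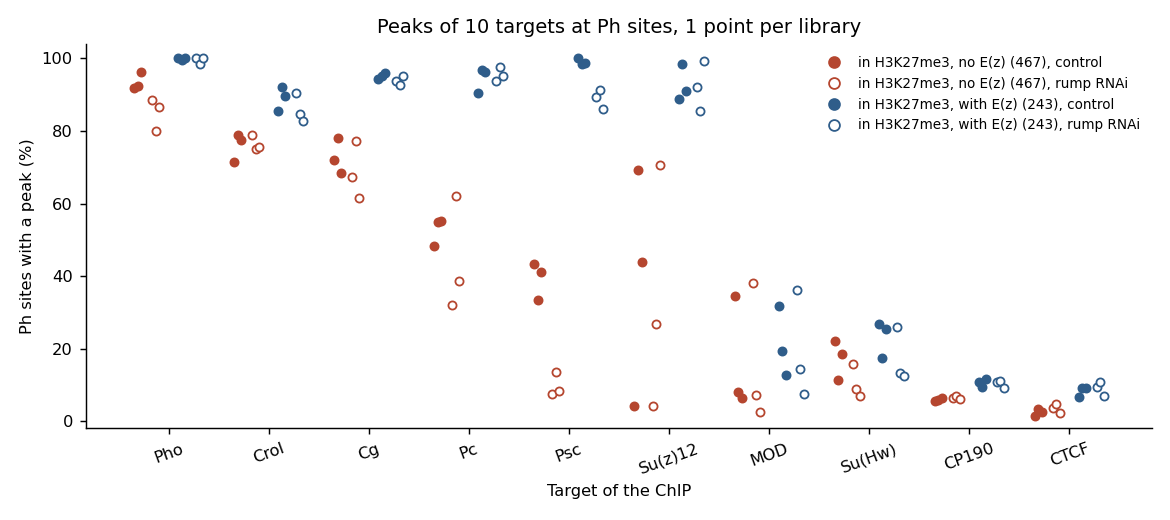
Share of sites with a peak (y axis, percent) for 10 targets (x axis) that did not choose the sites, with 1 point per library, E(z)-poor sites in red and E(z)-bearing sites in blue, control filled and rumpRNAi open. Psc, Pc and Su(z)12 separated the 2 kinds of site most widely, and Psc at E(z)-poor sites stood between 33.4% and 43.3% in control and between 7.49% and 13.5% after rumpRNAi.

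Against Ph sites outside H3K27me3, E(z)-poor sites had more Pc, at a mean of 48.5% against 9.40% and higher in 6 of 6 libraries, and more Psc, at 24.5% against 7.74%. They had less Crol, at 76.3% against 94.8%, less Su(Hw), at 13.9% against 26.5%, and less MOD, at 16.1% against 29.6%, each lower in 6 of 6 libraries. Each of these differences had the smallest exact sign-flip p, 0.0521 after adjustment over 10 targets, which does not pass 0.05. Su(z)12 was present at a mean of 36.5% of E(z)-poor sites and 42.0% of sites outside, lower in 4 of 6 libraries (exact adjusted p = 0.179). Pho was present at a mean of 89.3% and 88.9% (difference 0.437 ± 7.78 points, SD, n = 6, exact adjusted p = 0.906).

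E(z)-poor sites with and without Pc differed in most features. Both groups were formed from these lists, so what follows is a description. The 252 sites with Pc in 3 or more lists had a median G and C share of 52.2%, GAGAG at 65.6% and GTGTGT at 37.6%. Of those on chromosome arms, 26.8% lay at a transcription start, 24.0% in an intron, 31.2% in intergenic sequence and 15.2% in a coding exon. The 215 sites without Pc had a median G and C share of 64.8%, GAGAG at 33.0% and GTGTGT at 11.2%, and 80.0% of them lay in coding exons. GCCAT differed less, at 65.6% with Pc and 58.1% without. The same division was present at Ph sites outside H3K27me3. Of the 1221 sites there without Pc, 82.6% lay in coding exons, with a median G and C share of 64.8% and GAGAG at 30.3%. Of the 155 there with Pc, 5.33% lay in coding exons, with a median G and C share of 51.2% and GAGAG at 74.0%.

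The proteins followed the same division. Psc was kept at 38.9% of E(z)-poor sites with Pc and at 6.51% of those without, but Su(z)12 at 25.0% and 70.7%, and Crol at 66.7% and 93.5%. Pho was kept at 95.2% and 95.3%. Of the 138 sites with Su(z)12 but neither Pc nor Psc, 94.9% lay in coding exons and 100% had Crol. Their median Ph percentile was 49.8, against 85.6 for the 61 sites with Pc and Psc but no Su(z)12. Ph sites outside H3K27me3 showed the same. There Psc was kept at 20% with Pc and 2.70% without, Su(z)12 at 9.68% and 58.1%, and Crol at 87.1% and 97.5%. Of the 680 sites there with Su(z)12 but neither Pc nor Psc, 99.7% had Crol. Of those on chromosome arms, 89.1% lay in coding exons. Pc was also kept more often where the H3K27me3 region was shared, at 62.2% of E(z)-poor sites whose region held an E(z)-bearing site and at 41.3% of the others.

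**Figure D4:**
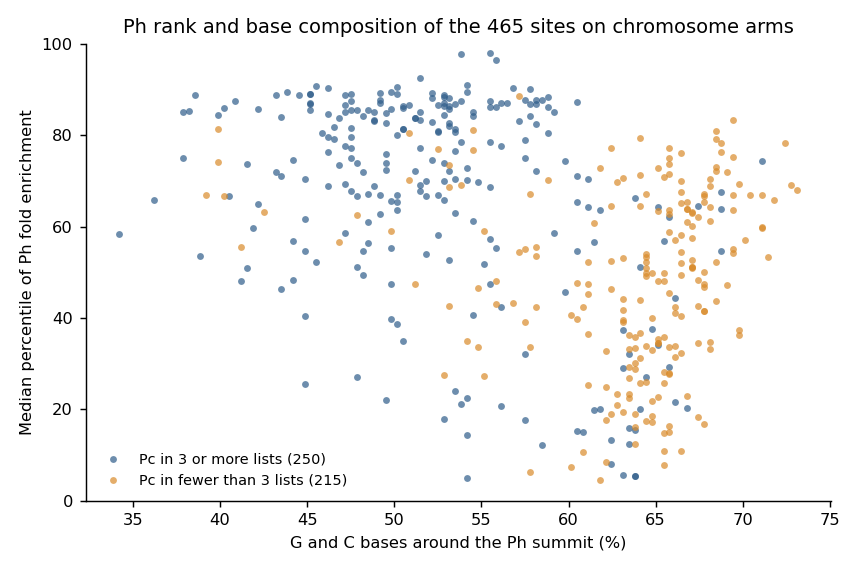
Median percentile of Ph fold enrichment (y axis) against the share of G and C bases around the Ph summit (x axis, percent) for the 465 E(z)-poor sites on chromosome arms, blue with Pc in 3 or more lists and orange without. Sites with Pc centred on a G and C share of 52.2% and sites without on 64.8%.

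Su(z)12 calls depended on the library more than on the condition. Peaks were present at 4.07%, 69.2% and 43.9% of E(z)-poor sites in control replicates 1 to 3 and at 4.28%, 26.8% and 70.7% after rumpRNAi. The lists themselves held 315, 2855 and 1378 peaks in control and 368, 886 and 4267 after rumpRNAi, and the longer lists had the higher shares in each condition. The condition means of 39.0 ± 32.8% and 33.9 ± 33.8% (SD, n = 3 each) were far closer than the libraries within a condition (exact permutation p = 1). Only 2 E(z)-poor sites had Su(z)12 in all 6 lists. One was in a coding exon of lz, a Runx factor, at chrX:9295192-9295711, with Su(z)12 fold enrichments of 5.10, 15.0 and 10.6 in control and 6.01, 9.41 and 14.5 after rumpRNAi. The other was in a coding exon of hth, a Hox cofactor, at chr3R:10605020-10605479. Sites in coding exons of Abd-B, grn and Ccp84Ag followed with 5 lists each. Pc had no peak in any list at lz, hth and grn.

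After rumpRNAi, Psc was called at fewer E(z)-poor sites. A peak was present at 43.3%, 33.4% and 41.1% of them in control replicates 1 to 3 and at 7.49%, 13.5% and 8.35% in the rumpRNAi replicates, so that the conditions did not overlap. The means were 39.3 ± 5.18% and 9.78 ± 3.24% (SD, n = 3 each), a difference of -29.5 points (exact two-sided permutation p = 0.1, the smallest that 3 against 3 libraries can give). The Psc lists were also shorter after rumpRNAi, with 322, 398 and 372 peaks against 881, 723 and 845. With every Psc list limited to its 322 strongest peaks, the shares were 17.1%, 15.0% and 9.42% in control and 7.49%, 8.78% and 7.71% after rumpRNAi, a difference of -5.85 points. The conditions still did not overlap, with the same exact p of 0.1. How much of the change in share comes from list length was not tested further.

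At E(z)-bearing sites Psc peaks were present at 99.0 ± 0.857% in control and 88.9 ± 2.70% after rumpRNAi (SD, n = 3 each, exact permutation p = 0.1). The gap between the 2 kinds of site, E(z)-poor minus E(z)-bearing, differed by -19.3 points after rumpRNAi (exact permutation p = 0.1, the smallest possible). That value holds for the lists as deposited, which were shorter after rumpRNAi, and was not repeated with lists of equal length. E(z)-bearing sites were also close to the upper limit of 100% in control. Psc had a peak in all 3 control lists at 99 E(z)-poor sites, of which 36 had one in no rumpRNAi list, 29 in 1, 18 in 2 and 16 in all 3. Of 237 such E(z)-bearing sites, 6 had none and 193 all 3. Psc was also ranked lower at E(z)-poor sites, and at similar rank the numbers were mostly closer. Of sites with a median control percentile of Psc between 50 and 75, 35.6%, 64.4% and 25.4% of 59 E(z)-poor and 63.6%, 72.7% and 59.1% of 44 E(z)-bearing sites had a peak in the 3 rumpRNAi libraries. Above 75 the E(z)-poor sites numbered 14, of which 9 had Psc in all 3 rumpRNAi lists, against 174 of 186 E(z)-bearing sites. Between 25 and 50 the gap was wide, with 0%, 15% and 10% of 20 E(z)-poor against 66.7%, 33.3% and 50% of 6 E(z)-bearing sites.

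Sites where Psc had peaks in all 3 control and no rumpRNAi libraries made up 36 of the 467 E(z)-poor sites (7.71%), against 2.35% of all 2086 Ph sites. At E(z)-bearing sites they made up 6 of 243 (2.47%), and outside H3K27me3 7 of 1376. No E(z)-poor site gained Psc by the same rule. The Psc lists were shorter after rumpRNAi, and their lowest -log10 q was 6.80 to 7.85, against 6.29 to 6.49 in control. With such lists a loss is easier to call than a gain, and the rule was not repeated with lists of equal length. The 5 strongest of the 36 were an intron of Lobe (L), the start of erm, the start of Hr4, an intergenic site nearest to lncRNA:CR44737 and an intron of the receptor gene Egfr. At erm the Psc fold enrichments were 6.63, 7.19 and 10.4 in control, and Ph and Pc kept peaks in all 6 lists there. At Hr4 they were 9.70, 7.16 and 15.4 in control, and Ph was in all 6 lists. At Lobe, chr2R:14456099-14456455, they were 5.85, 8.62 and 12.5, and Ph itself had peaks in the 3 control libraries only.

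Ph was called at fewer E(z)-poor sites after rumpRNAi in some libraries. Peaks were present at 94.9%, 96.1% and 95.5% in control and at 69.4%, 49.9% and 93.6% after rumpRNAi, where replicate 3 was nearly at the control level and replicate 2 stood apart. At E(z)-bearing sites at least 98.4% had a Ph peak in every library. Outside H3K27me3 the shares were 84.0%, 94.9% and 87.2% in control and 58.7%, 73.3% and 86.8% after rumpRNAi. The second rumpRNAi library kept Ph at 27.4% of E(z)-poor sites with Pc and at 76.3% of those without, whereas replicates 1 and 3 had it at 74.6% and 93.7% with Pc and at 63.3% and 93.5% without. At Ph sites outside H3K27me3 the second rumpRNAi library likewise had Ph at 35.5% with Pc and 78.1% without. Ph was lost, with peaks in all 3 control and no rumpRNAi lists, at 17 E(z)-poor sites, against 2.54% of all Ph sites, which is given as a description since Ph chose the sites. Without the second rumpRNAi Ph list, the rule on the 5 remaining lists gave 459 sites, of which 250 had Pc (54.5%).

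**Figure D5:**
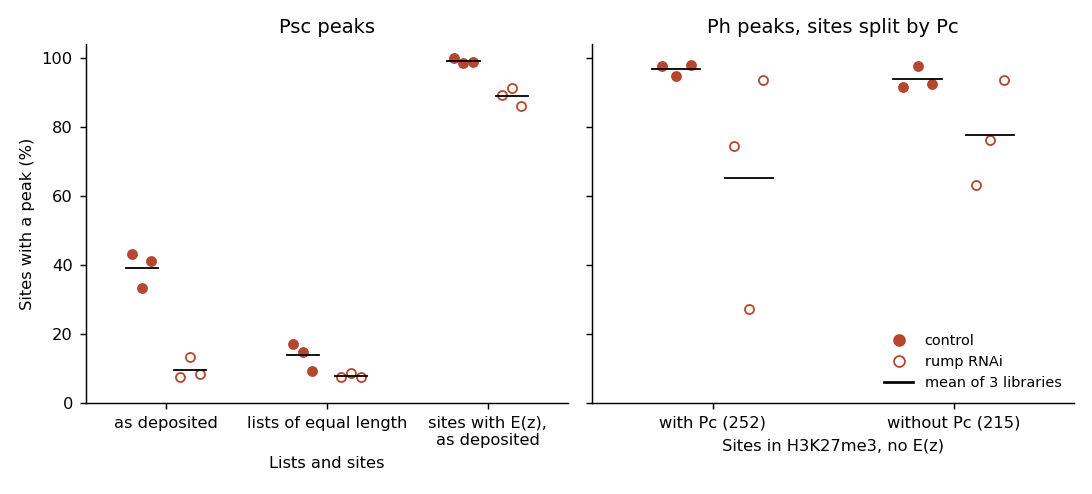
Share of sites with a peak (y axis, percent), 1 point per library, control filled, rumpRNAi open, lines at the mean of 3 libraries. Left, Psc at E(z)-poor sites with lists as deposited and with 322 peaks each, and at E(z)-bearing sites; right, Ph at E(z)-poor sites with and without Pc, where the second rumpRNAi library had the lowest point of the panel, 27.4%.

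Pho was also called at fewer E(z)-poor sites after rumpRNAi, at 88.4%, 80.1% and 86.7% against 91.9%, 92.3% and 96.4% in control. The conditions did not overlap, and the means of 93.5 ± 2.48% and 85.1 ± 4.41% (SD, n = 3 each) differed by -8.42 points (exact permutation p = 0.1). At the 176 sites with Ph in all 6 lists the difference was -2.46 points and the conditions overlapped (exact permutation p = 0.2), and at Ph sites outside H3K27me3 it was -7.17 points (exact permutation p = 0.3). The second rumpRNAi library, which the labels tie to the same input as that of Ph, was lowest, and at sites with Pc it had Pho at 69.0%, against 92.5% and 90.5% in replicates 1 and 3. The conditions overlapped when sites with Pc and sites without Pc were taken separately. Only 1 site lost Pho in all libraries, against 0.0479% of all Ph sites. It was in an intron of chinmo, a regulator of cell identity, at chr2L:1654200-1654667, with Pho fold enrichments of 4.20, 5.37 and 4.12 in control.

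In the share of sites with a peak, other targets overlapped between conditions at E(z)-poor sites. Crol was present at 76.0 ± 3.97% in control and 76.5 ± 2.19% after rumpRNAi (SD, n = 3 each, exact permutation p = 1), and Cg at 72.8 ± 4.98% and 68.7 ± 8.02% (exact permutation p = 0.4). Presence does not show height. Where Crol had a peak, its median percentile was 51.5 to 70.0 in control and 80.6 to 82.6 after rumpRNAi. Its median fold enrichment was 3.47 to 5.43 and 5.71 to 6.83. Outside H3K27me3 the percentiles were 43.0 to 70.7 and 80.0 to 83.2, and at E(z)-bearing sites they overlapped. The Crol lists were longer after rumpRNAi, and these differences were not tested. Pc was present at 48.4%, 55.0% and 55.2% in control and at 31.9%, 62.1% and 38.5% after rumpRNAi, with the second rumpRNAi library highest of all 6 (exact permutation p = 0.4). E(z) peaks, which chose the sites, were present at 8.99%, 0.428% and 3.43% in control and 21.4%, 0.642% and 2.78% after rumpRNAi, highest in replicate 1 of both conditions, and H3K27me3 at 81.6% and 95.9% in control and 86.9% and 85.0% after rumpRNAi.

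Single sites changed for other proteins in small numbers. Crol was gained at 3 E(z)-poor sites, against 0.144% of all Ph sites, and lost at 1, against 0.192%. The gains were in a coding exon of the homeobox gene Gsc, at the start of grh, which encodes the Grainyhead factor, and in a coding exon of the ligand gene hh. At Gsc, chr2L:584130-584472, Crol fold enrichments were 3.18, 3.39 and 3.08 after rumpRNAi. They were 2.54, 2.87 and 3.46 at grh and 2.87, 2.31 and 2.93 at hh. The Crol lists were longer after rumpRNAi, with 11117, 9883 and 10027 peaks against 7214, 8903 and 8693 in control. With such lists a gain is easier to call than a loss. The loss was 656 bp from the start of tey. Cg was lost at 2 E(z)-poor sites, against 0.0959% of all Ph sites, an intron of bi, a T-box gene, and an intron of Antp. Su(Hw) was lost at 3, against 1.05%, in coding exons of HLH3B, tey and elB. At bi, Cg fold enrichments were 4.04, 6.52 and 4.57 in control.

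At the Hox loci both kinds of E(z)-poor site occurred side by side. Of the 5 sites on Antp, that at chr3R:6999052-6999706 overlapped a start and had Pc and Pho in all 6 lists, Psc in 3 control and 2 rumpRNAi lists, and lay 0.371 kb from an E(z)-bearing site. In Ubx, 3 sites lay in introns with Pho in all 6 lists and neither Crol nor Cg in any, at chr3R:16661642-16662252, chr3R:16664985-16665477 and chr3R:16715536-16715923. A site in the coding exon of Ubx at chr3R:16732643-16733542 had Psc in 3 control and no rumpRNAi lists and Crol, Cg and Pho in all 6. In abd-A, the coding site at chr3R:16825905-16826620 likewise had Psc in 3 control and no rumpRNAi lists, here with Pc in all 6. In Abd-B, 3 of 4 sites had Pc in all 6 lists and Psc in 1 control list only.

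Insulator proteins were minor at E(z)-poor sites. CP190 was present at 5.57% to 7.07% and CTCF at 1.50% to 4.71% over the 6 libraries, and their summits, where present, lay at a median of 215 bp and 258 bp from that of Ph. Su(Hw) was present at 22.1%, 11.3% and 18.4% of sites in control and 15.6%, 8.99% and 7.07% after rumpRNAi, or 17.3 ± 5.44% in control and 10.6 ± 4.49% after rumpRNAi (SD, n = 3 each, exact permutation p = 0.2). MOD was present at 34.5% and 38.1% in the first replicate of each condition and at 2.57% to 7.92% in the other 4 libraries. Those first lists held 5059 and 4892 peaks, against 1734 to 2917. Their lowest -log10 q was 2.17 and 2.24, against 4.12 to 4.81. With a -log10 q of 10 or more their shares were 15.2% and 18.8%, against 2.14% to 6.00%. The first Su(Hw) lists also reached down to a -log10 q of 2.28 and 2.02.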

How the data were processed

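Deposited peak lists of 76 immunoprecipitated libraries were used, and 34 input samples were not analysed here, 17 of which were left without a group because their title names rump knockdown and their treatment label GFP dsRNA. According to the paper and the submitters' processing notes, reads were trimmed with Trim Galore 0.6.7, aligned to dm6 with Bowtie2 2.5.3, and filtered for quality, rRNA and duplicates, and the authors called peaks in each library against its input with MACS2 2.2.7.1. In the deposited lists the fold enrichment is a ratio of immunoprecipitated over input signal, significance is given as -log10 p and -log10 q, and the score was derived from the latter by the authors. Pc and H3K27me3 lists hold broad peaks. Read depth is unknown from the lists, and shares depend on list length, which ranged from 214 for E(z) to 11117 for Crol, so no counting interval is given. The lowest -log10 q differed between lists, and peak names of Psc, E(z) and Su(z)12 carry other replicate numbers than the labels, which were followed.

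Lists were analysed with Python 3.11.15, numpy 2.4.6 and matplotlib 3.10.9. All peaks on chromosome arms lay within the arm lengths of the dm6 reference. Genes came from Ensembl release 115, sequence from RefSeq, and coordinates are counted from 1. A target was at a site when a peak shared 1 bp with it. Sites were assigned in the order start, coding exon, other exon, intron and intergenic. Conditions were compared by exact two-sided permutation of 3 against 3 libraries, and classes by sign flips over 6 libraries, with Benjamini-Hochberg adjustment over 10 targets; scripts were tested on simulated lists. The labels call replicates biological, and p-values measure only the spread between these libraries. Members, gene lists and tests were chosen with earlier results of these data known. Sites named are the 10 strongest in Ph, up to 5 per target and direction that changed in all libraries, 5 with Su(z)12 in most lists, sites on listed genes and loci named by the study. The Polycomb and hemocyte markers were not tested for cell identity, since the lists hold no expression.

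Same-numbered libraries of both conditions were checked for pairing by the correlation of their deviations from the group mean over the 467 sites. Every correlation exceeded 0.1 for Pho (0.231, 0.462 and 0.369) and MOD (0.722, 0.426 and 0.669) only. Alternatives were a 1 kb window, a -log10 q of 10 or more, lists of equal length, an overlap of 100 bp, sites without any E(z) peak, sites with Ph in all 6 lists, and each library left out. Added after the data were seen were sites from 5 Ph lists, a Ph percentile of 75 to 90, sites with Pc, and a replicate block between classes for Pho and MOD.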

Additional observations from a re-analysis of the deposited data

How the results depend on the processing

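In the comparisons of conditions, 117 alternative values kept the direction and 13 turned, and none could pass 0.05. With lists of equal length the difference turned for Su(z)12 (0.0714 points), Crol (-2.43), Cg (3.28) and MOD (2.21). With Ph in all 6 lists it turned for Crol (-1.52), and without any E(z) peak for MOD (0.101). Leaving out each library in turn gave -32.4 to -27.5 points for Psc, -10.1 to -5.92 for Pho, -17.7 to -2.57 for Pc, -23.5 to 9.92 for Su(z)12, -1.75 to 2.00 for Crol, -8.46 to -0.535 for Cg, -9.67 to -4.32 for Su(Hw), -11.3 to 8.82 for MOD, 0.286 to 0.821 for CP190 and 0.5 to 1.68 for CTCF. A replicate block of same-numbered libraries leaves a difference as it is by construction (Psc -29.5 and Pho -8.42 points) and gave an exact sign-flip p of 0.25 for both, the smallest that 3 pairs allow.

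Between E(z)-poor and E(z)-bearing sites, calls were lost with Ph in all 6 lists for Pho (-1.21 points) and turned for Crol (5.68), Su(Hw) (5.12) and MOD (9.43). At a Ph percentile of 75 to 90 they were lost for Pc (-3.50), Pho (-2.03) and Cg (-6.65) and turned for CP190 (4.16). Under the replicate block, added after the data were seen for Pho and MOD, the Pho difference (-10.4) lost its call at an exact p of 0.25. With only E(z)-poor sites that had Pc, the Pc difference was -9.08, a value the restriction itself sets. MOD passed with a -log10 q of 10 or more (-5.50), equal lists (-4.91), no E(z) peak (-7.97), the Ph percentile of 75 to 90 (-21.4) and Pc sites only (-12.8). Leaving out each library in turn, where 5 libraries cannot pass 0.05, gave -72.0 to -67.0 points for Psc, -61.6 to -49.7 for Su(z)12, -48.7 to -43.4 for Pc, -25.4 to -21.7 for Cg, -12.2 to -10.8 for Crol, -11.7 to -8.78 for Pho, -6.66 to -5.44 for Su(Hw), -5.56 to -2.72 for MOD, -4.45 to -4.03 for CP190 and -5.80 to -5.43 for CTCF. The causes of these shifts were not tested.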
